A study of Mus musculus with 16 samples.

Results

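The expression of 7 genes, *Tmem44*, *Cass4*, *Nedd9*, *Bcat1*, *Kcne3*, *Ednrb* and *Bank1*, was examined across CD11b+ cells of mouse brains with and without the 5xFAD transgenes. They are 7 of the 55385 gene symbols of the count table, and they were chosen by their measured values, as genes that fell with the transgenes in mice with or without *Card9*. Their transgene responses are therefore given as a description, with no test. The 16 libraries held 4 genotypes with 4 libraries each: WT mice without transgenes, *Card9*-/- mice without transgenes, 5xFAD mice, and *Card9*-/-5xFAD mice. All were female and 20 weeks old per the labels. The 5xFAD transgenes carry human familial Alzheimer's disease mutations and are expressed in neurons under the Thy1 promoter, so the sorted cells meet amyloid in their surroundings rather than make it. The *Card9* deletion was carried in the germline and hence by every cell, not by microglia alone. The cells were taken with CD11b magnetic beads from perfused brains stripped of meninges and choroid plexus, without a further gate. The paper states that flow cytometry was used to check the isolation before sequencing, with most cells CD11b-high and CD45-intermediate.

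Microglia, the resident macrophages of the brain, change their expression around amyloid plaques: genes of plaque-associated microglia such as *Cst7*, *Lpl* and *Itgax* rise, while genes of resting microglia can fall. The 7 genes belong to several pathways. CASS4 and NEDD9 are scaffolds of the Cas family, which dock kinases and adaptors at sites where a cell holds on to its matrix, and *CASS4* lies at a human locus associated with Alzheimer's disease. EDNRB is the endothelin B receptor, a G protein-coupled receptor. KCNE3 is an accessory subunit that sets the gating of voltage-gated potassium channels, BCAT1 is the cytosolic aminotransferase that starts the breakdown of leucine, isoleucine and valine, BANK1 is an adaptor best known from B cell receptor signaling, and TMEM44 is a membrane protein whose role is poorly known.

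The promoters of the gene of lowest p among those that fell and of the most abundant gene are printed to show how unlike the upstream sequences of these genes are. The RefSeq promoter windows (GRCm38.p6) reached all 7 genes with 9 windows of 300 bases, and the lines below give the 250 bases before the RefSeq start site, 5′ to 3′ on the gene's strand, with each CG dinucleotide in capitals. That of *Tmem44* lies at chr16:30550579-30550828 on the minus strand, and that of *Bank1* at chr3:136326067-136326316 on the minus strand. GENCODE places the 5′ end of *Tmem44* farther upstream, so the *Tmem44* stretch lies within the GENCODE span of the gene, whereas that of *Bank1* ends where the GENCODE gene begins.
Tmem44: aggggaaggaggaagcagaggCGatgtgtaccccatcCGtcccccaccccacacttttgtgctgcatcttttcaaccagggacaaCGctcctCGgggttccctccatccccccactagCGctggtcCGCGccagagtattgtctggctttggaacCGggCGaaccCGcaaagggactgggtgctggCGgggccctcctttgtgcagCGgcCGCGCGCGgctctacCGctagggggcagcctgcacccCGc
Bank1: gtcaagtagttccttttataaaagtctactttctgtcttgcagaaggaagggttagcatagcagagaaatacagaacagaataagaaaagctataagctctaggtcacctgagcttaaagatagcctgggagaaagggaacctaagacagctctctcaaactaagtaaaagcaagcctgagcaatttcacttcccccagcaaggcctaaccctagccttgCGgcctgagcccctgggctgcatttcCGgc
The *Tmem44* stretch held 18 CG dinucleotides with a GC content of 66.0%, and the *Bank1* stretch held 2 with a GC content of 46.4%. Over the whole windows, the 9 member promoters had a median of 12 CG dinucleotides and 55.7% GC, against 7 and 52.7% over all 32851 windows. Letters associated with transcription factors of microglia or of general use were searched on both strands. None of the 9 windows held GAGGAAGT (PU.1), CACGTG (E-box), TTACGTAA (PAR bZIP), TGACTCA (AP-1) or GTCTAGAC (SMAD), which stood in 3.2%, 7.15%, 0.119%, 5.2% and 0.213% of all windows. TATAAA stood in 3 of the 9, those of *Bank1*, *Nedd9* and 1 of the 2 of *Bcat1*, at positions -236 to -219 from the start site, and in 13.6% of all windows. With so few windows and such low shares, these counts describe the letters and no more.

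Between 2970148 and 19333325 reads were counted per library. Levels are given in CPM, the reads counted on a gene relative to its library's reads on genes passing the filter on low counts, scaled between libraries (TMM). Differences are given as log2 fold changes. Of the symbols 14513 passed the filter on low counts, all 7 members among them. The targeted gene did not separate the *Card9* genotypes: *Card9* stood at 13.6 to 51.3 CPM in WT, 16.7 to 34.8 CPM in libraries labelled *Card9*-/-, 15.6 to 33.5 CPM in 5xFAD and 9.73 to 33.7 CPM in libraries labelled *Card9*-/-5xFAD. Set against their controls, the *Card9* level differed by -0.34 (log2, SE 0.45) without the transgenes and by -0.44 (SE 0.45) with them, with adjusted p-values of 0.97 and 0.993. Reads from exons that the deletion leaves in place would be counted too, so these values neither bear out nor refute the labels. All directions of *Card9* effects given here rest on the labels alone. The 8 microglia markers, such as *Tmem119* and *P2ry12*, were detected in all 16 libraries. Their summed level was 12400 to 14300 CPM in 1 library of each genotype (WT replicate 1, *Card9*-/- replicate 4, 5xFAD replicate 1 and *Card9*-/-5xFAD replicate 4) and 20200 to 32100 CPM in the other 12, so results are also given without these 4. The 8 monocyte and neutrophil markers, such as *S100a8* and *Ngp*, were highest in the library of low microglia markers of each genotype, with summed CPM of 3940 (WT), 6480 (*Card9*-/-), 2290 (5xFAD) and 6140 (*Card9*-/-5xFAD). The other 12 libraries had 530 to 2320 CPM. Their part in the results was not tested. In bulk RNA, fewer cells of a type and less RNA per cell cannot be told apart.

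*Tmem44* (chr16:30511855-30550842, mm10, protein-coding) had the lowest p among the fallen genes of both transgene contrasts. *Tmem44* stood at 24.8, 38.9, 35.4 and 44.5 CPM in WT replicates 1 to 4 and at 39.3, 35.4, 46.4 and 33.7 CPM in the libraries labelled *Card9*-/-. With the transgenes it stood at 6.83, 10, 11.7 and 17.2 CPM in 5xFAD and at 12.7, 10.6, 9.04 and 14 CPM in the libraries labelled *Card9*-/-5xFAD. The 8 libraries with the transgenes all lay below the 8 without them. Between 5xFAD and WT the log2 fold change was -1.65 (SE 0.29), a 3.14-fold difference, and between *Card9*-/-5xFAD and *Card9*-/- it was -1.74 (SE 0.29), a 3.35-fold difference.

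The Cas scaffolds *Cass4* (chr2:172393794-172433757) and *Nedd9* (chr13:41309581-41487362) fell in mice with *Card9* and had smaller differences without it, by the labels. *Cass4* stood at 71.8, 47, 35 and 40.8 CPM in WT replicates 1 to 4 and at 42.3, 49.1, 38.8 and 46.1 CPM in the libraries labelled *Card9*-/-. With the transgenes it stood at 19.7, 15.2, 18 and 18.2 CPM in 5xFAD and at 19.8, 22.4, 24.2 and 38.5 CPM in the libraries labelled *Card9*-/-5xFAD. The 5xFAD libraries lay below every WT library, whereas replicate 4 of the libraries labelled *Card9*-/-5xFAD, with 38.5 CPM, reached the levels of WT. *Cass4* had a log2 fold change of -1.45 (SE 0.27) with *Card9* and -0.76 (SE 0.27) without it. WT replicate 1 and *Card9*-/-5xFAD replicate 4 are among the 4 libraries of low microglia markers. Without those 4 the *Cass4* values were -1.22 (SE 0.21) and -0.95 (SE 0.20). *Nedd9* stood at 15.1, 9.41, 9.49 and 17.4 CPM in WT replicates 1 to 4 and at 9.85, 11.4, 9.54 and 10.8 CPM in the libraries labelled *Card9*-/-. With the transgenes it stood at 5.16, 2.88, 3.6 and 5.18 CPM in 5xFAD and at 8.98, 10.2, 5.74 and 7.61 CPM in the libraries labelled *Card9*-/-5xFAD. Here replicate 2 of the libraries labelled *Card9*-/-5xFAD, with 10.2 CPM, reached the levels without transgenes, and the 2 *Card9*-deficient groups overlapped. The log2 fold change was -1.61 (SE 0.31) with *Card9* and -0.35 (SE 0.30) without it. For *Cass4*, 1130 bases of exon are shared with the antisense gene *Gm14455*, to which 231 counts were assigned against 5097 for *Cass4*. *Nedd9* shares 62 bases with *Gm32401* (85 counts against 1342), and whether the counting used the strand is not given in the sources used here.

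At the membrane, *Ednrb* (chr14:103814625-103844402), the endothelin B receptor, was lower by similar amounts on both backgrounds. *Ednrb* stood at 13.9, 27, 28.8 and 40.5 CPM in WT replicates 1 to 4 and at 24.9, 30.6, 22.8 and 38 CPM in the libraries labelled *Card9*-/-. With the transgenes it stood at 5.46, 8.64, 8.09 and 11.2 CPM in 5xFAD and at 5.33, 9.81, 10.1 and 9.61 CPM in the libraries labelled *Card9*-/-5xFAD. All 8 transgenic libraries lay below all 8 others, although WT replicate 1 was close to them. *Ednrb* had log2 fold changes of -1.72 (SE 0.34) with *Card9* and -1.74 (SE 0.34) without it.

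*Kcne3* (chr7:100176502-100184869), the potassium channel subunit, was scarce. *Kcne3* stood at 3.17, 2.82, 3.97 and 3.96 CPM in WT replicates 1 to 4 and at 3.12, 1.53, 3.2 and 2.62 CPM in the libraries labelled *Card9*-/-. In 5xFAD the values were 1.36, 0.411, 1.08 and 1.09 CPM, and in the libraries labelled *Card9*-/-5xFAD they were 0.493, 0.456, 0.521 and 0.401 CPM. The transgenic libraries again lay below all others, on summed counts of 26 (95% Poisson interval 17.0 to 38.1) in 5xFAD and 13 (6.92 to 22.2) in the libraries labelled *Card9*-/-5xFAD. Without the transgenes these were 124 (103 to 148) in WT and 125 (104 to 149) in the libraries labelled *Card9*-/-, and the intervals cover counting error only. *Kcne3* had log2 fold changes of -1.81 (SE 0.40) with *Card9* and -2.42 (SE 0.44) without it.

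*Bcat1* (chr6:144993835-145076184), the cytosolic branched-chain aminotransferase, had the largest fold change of the 7 in mice with *Card9* and the fewest reads. *Bcat1* stood at 1.94, 2.74, 2.32 and 2.57 CPM in WT replicates 1 to 4 and at 1.8, 1.08, 1.19 and 1.31 CPM in the libraries labelled *Card9*-/-. In 5xFAD the values were 0.303, 0.685, 0.36 and 0.272 CPM, and in the libraries labelled *Card9*-/-5xFAD they were 0.395, 0.913, 0.174 and 0.401 CPM. No transgenic library reached the lowest of the others. The counts behind these values were 11, 32, 21 and 24 in WT, 15, 26, 20 and 4 in the libraries labelled *Card9*-/-, 2, 5, 2 and 2 in 5xFAD and 4, 8, 1 and 1 in the libraries labelled *Card9*-/-5xFAD. The log2 fold change was -2.52 (SE 0.48) with *Card9* and -1.41 (SE 0.48) without it. Without replicate 2 of the libraries labelled *Card9*-/-5xFAD the second value was -2.02.

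*Bank1* (chr3:136053363-136326066), the B cell adaptor, was the most abundant of the 7. *Bank1* stood at 92.2, 139, 163 and 130 CPM in WT replicates 1 to 4 and at 132, 166, 182 and 59.2 CPM in the libraries labelled *Card9*-/-. In 5xFAD the values were 38.7, 53.2, 52 and 45 CPM, and in the libraries labelled *Card9*-/-5xFAD they were 46.3, 42.9, 52.7 and 48.1 CPM. Replicate 4 of the libraries labelled *Card9*-/-, with 59.2 CPM, came closest to the transgenic libraries, which still lay below it. *Bank1* had log2 fold changes of -1.47 (SE 0.31) with *Card9* and -1.51 (SE 0.31) without it. Of the B cell genes, *Ms4a1* had at most 3 counts in a library and *Pax5* at most 1, *Cd79a* had 0 to 17, and *Bank1* had 120 to 4014. The summed B cell markers, most of it *Ighm*, *Cd79b* and *Cd74*, which other cells also express, were 942 to 2030 CPM in WT and 1250 to 2220 CPM in 5xFAD.

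**Figure D1:**
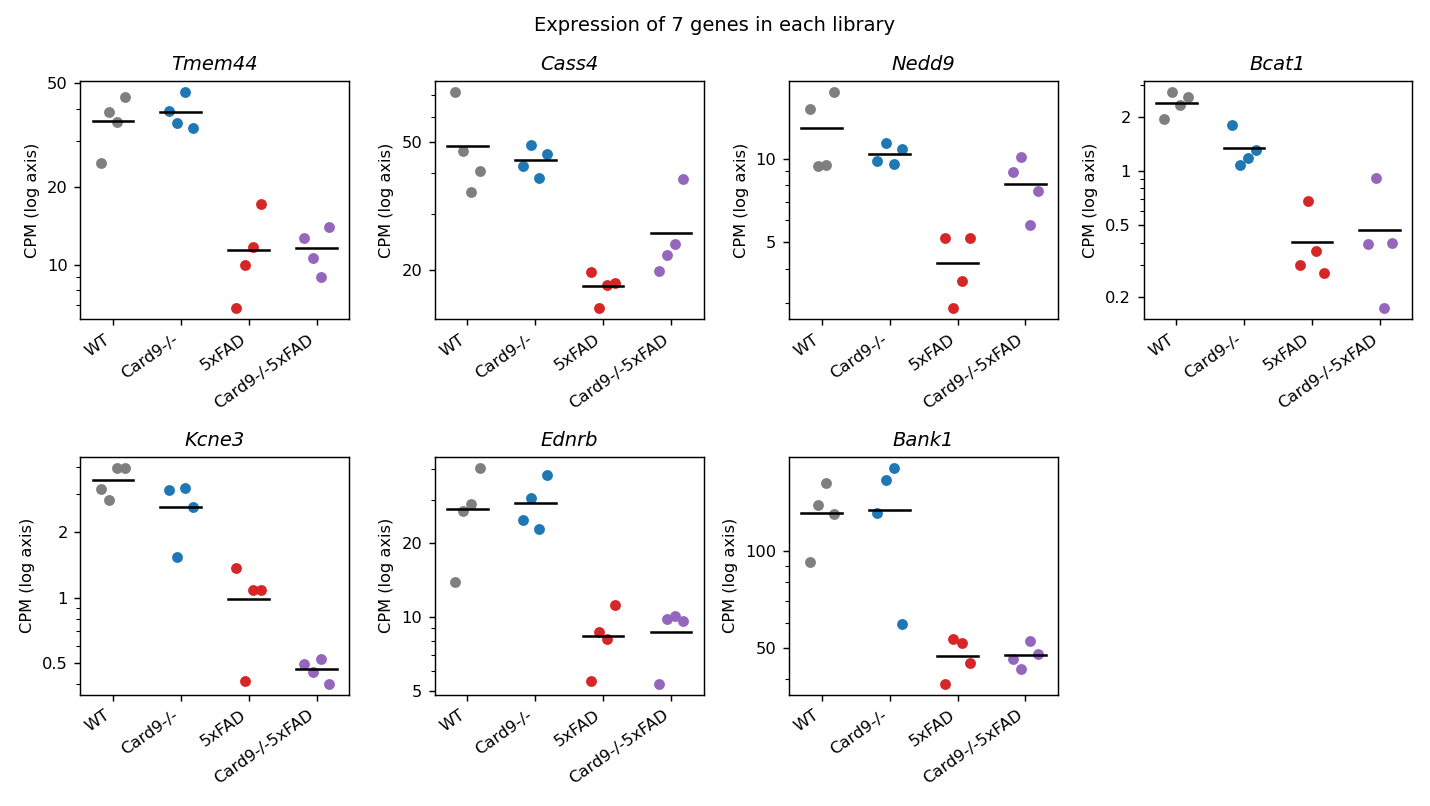
CPM (log axes) of the 7 genes in each of the 16 libraries, by labelled genotype; points are libraries and bars are means of 4. For *Tmem44*, *Bcat1*, *Kcne3*, *Ednrb* and *Bank1* all 8 transgenic libraries lie below the 8 others, and for *Cass4* and *Nedd9* 7 of the 8 do.

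Set side by side, all 7 genes were lower in value in both transgene contrasts, and all 7 passed the false discovery rate (FDR) threshold of 0.1 between 5xFAD and WT, a contrast that chose them. Over all 14513 genes, 0.524% were called lower there and 1.57% higher. Between *Card9*-/-5xFAD and *Card9*-/- only *Tmem44*, *Kcne3*, *Ednrb* and *Bank1* passed, where 0.482% of all genes were called lower and 1.49% higher, so the description of the set as falling without *Card9* was not met by *Cass4*, *Nedd9* and *Bcat1* at this threshold. These 4 genes were among the 0.22% of genes called lower in both contrasts. Every 5xFAD library lay below every WT library for 7 of 7 members and for 3.69% of all genes, and the same held between the *Card9*-deficient groups for 6 of 7, all but *Nedd9*, and for 3.48% of all genes. All 8 transgenic libraries lay below all 8 others for 5 of 7 members and for 0.469% of all genes. These shares are given for scale, since the same contrasts chose the members. The median log2 fold change of all genes was -0.15 in both contrasts, and that of the members was -1.65 and -1.51.

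With the replicate number as a block within each *Card9* genotype, *Cass4* (-0.81, SE 0.21) and *Bcat1* (-1.46, SE 0.54) also passed without *Card9*, 6 of 7 in all, and *Nedd9* (-0.37, SE 0.23) did not. The pairing in this block is an assumption. Both transgene contrasts chose the members, so the counts of members passing here are a description and no test. Under this block 2322 and 2966 genes were called in either direction with and without *Card9*, against 304 and 286 without the block. Without the 4 libraries of low microglia markers, a choice made after seeing the data, 7 and 5 members passed, *Cass4* (-0.95, SE 0.20) being added, and 1144 and 2394 genes were called. A test of whether the response differed between the *Card9* backgrounds found 0.0% of all genes past the threshold (78 genes at an unadjusted p below 0.05, and 1 by DESeq2). For the members the difference of the log2 fold changes is a description: it was 1.26 (SE 0.43) for *Nedd9*, 1.11 (SE 0.69) for *Bcat1*, 0.69 (SE 0.38) for *Cass4*, -0.61 (SE 0.58) for *Kcne3*, -0.092 (SE 0.40) for *Tmem44*, -0.017 (SE 0.48) for *Ednrb* and -0.035 (SE 0.43) for *Bank1*. Without the 4 libraries of low microglia markers it was 1.33 (SE 0.46) for *Nedd9*, 1.15 (SE 0.76) for *Bcat1* and 0.275 (SE 0.29) for *Cass4*.

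**Figure D2:**
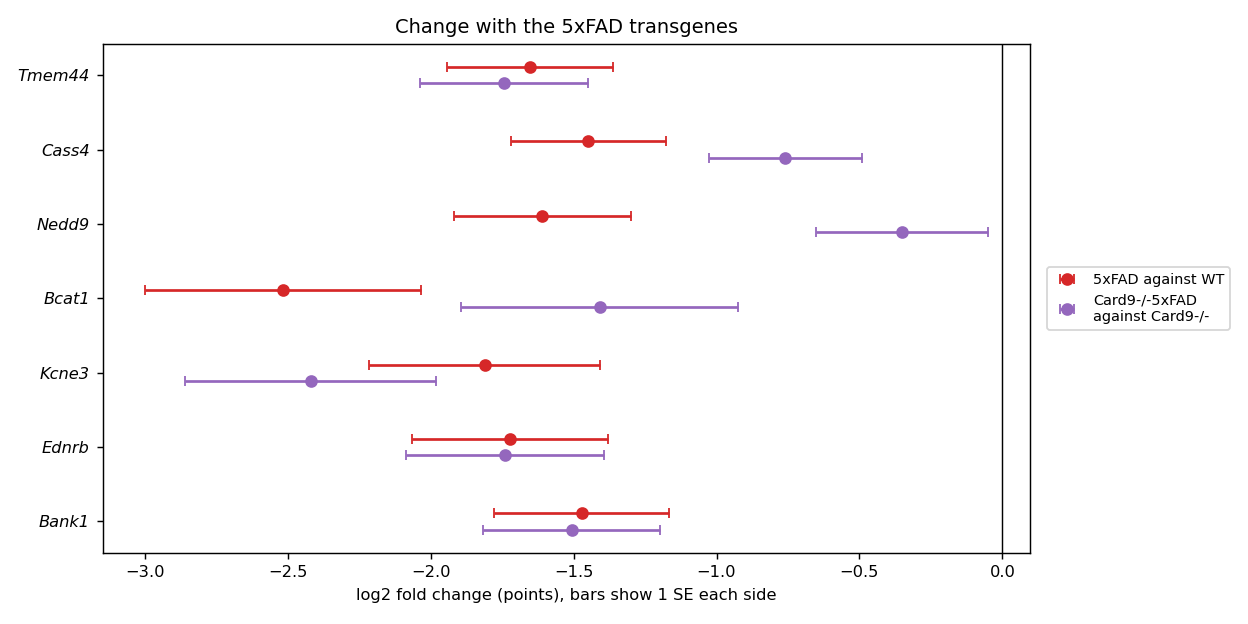
Log2 fold change of each gene with the 5xFAD transgenes (x axis) in mice labelled with *Card9* (red) and without it (purple); points are edgeR estimates and bars 1 SE each side. The pairs lie together for *Tmem44*, *Ednrb* and *Bank1* and apart for *Nedd9*, at -1.61 and -0.35.

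The members are not the whole head of the list of fallen genes. Among genes lower in 5xFAD than in WT, ordered by p, *Tmem44*, *Cass4*, *Nedd9* and *Bcat1* ranked 1, 3, 4 and 5, *Ednrb* 8, *Bank1* 13 and *Kcne3* 20, with *Hlf* at rank 2. Without *Card9*, *Tmem44*, *Kcne3*, *Ednrb* and *Bank1* ranked 1, 2, 4 and 5, with *Ptger3* at rank 3, while *Bcat1*, *Cass4* and *Nedd9* ranked 263, 290 and 3165. Just outside, *Thada* followed *Kcne3* with a log2 fold change of -1.02 (SE 0.23) and mean levels of 43.6 CPM in WT and 21.4 CPM in 5xFAD. *Iqgap2* followed *Bank1* without *Card9*, with -1.42 (SE 0.29) and mean levels of 17.9 and 6.79 CPM.

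Markers of border-associated macrophages, which share CD11b with microglia, moved with the members. Their 7 genes summed to 1060 to 1730 CPM in WT, 981 to 1940 CPM in libraries labelled *Card9*-/-, 608 to 847 CPM in 5xFAD and 420, 558, 819 and 1830 CPM in replicates 1 to 4 of the libraries labelled *Card9*-/-5xFAD, so that only replicate 4, 1 of the 4 libraries of low microglia markers, reached the levels without transgenes. All 7 were detected in every library. In 5xFAD 3 of the 7 passed the threshold as lower, *Mrc1* with a log2 fold change of -1.20 (SE 0.28), *Lyve1* with -1.28 (SE 0.30) and *F13a1* with -1.46 (SE 0.39). Without *Card9* only *Mrc1* passed, with -1.28 (SE 0.28). *Mrc1*, the mannose receptor, stood at 146, 176, 162 and 248 CPM in WT and 57, 85, 83.3 and 93.8 CPM in 5xFAD. It stood at 216, 302, 290 and 225 CPM in the libraries labelled *Card9*-/- and 87.9, 105, 84.6 and 150 CPM in those labelled *Card9*-/-5xFAD. Leaving out 1 library, *Mrc1* passed in 11 of 16 fits in 5xFAD and 12 of 16 without *Card9*, and in 5xFAD *Lyve1* passed in 11 of 16 and *F13a1* in 5 of 16. In 5xFAD *Mrc1* and *Lyve1* differed by less than each of the 7 members. *F13a1*, at -1.46, differed by about as much as *Cass4* (-1.45) and *Bank1* (-1.47). Without *Card9*, *Mrc1* (-1.28) and *Lyve1* (-0.79, not past the threshold) differed by more than *Cass4* (-0.76) and *Nedd9* (-0.35). They differed by less than the other members there. The members were chosen for falling in these contrasts, so nothing is drawn from these sizes. The part of these cells in the members' falls was not tested. The astrocyte markers, of interest because astrocytes express *Ednrb*, summed to 235 to 337 CPM in WT and 188 to 240 CPM in 5xFAD, with 1 of the 7 tested called, *Gfap*, which was higher. Most of the sum was *Slc1a3*, at 205 to 311 CPM in WT and 139 to 199 CPM in 5xFAD. Of the others not called, *Aqp4*, *Slc1a2* and *Aldoc* were higher by value in 5xFAD, and *Gja1* and *Aldh1l1* were lower, as was *Slc1a3*. The microglia markers summed to 12800 to 32100 CPM in WT and 13400 to 30900 CPM in 5xFAD. Elsewhere the lists of markers held few calls. *Pecam1*, an endothelial gene, was lower in 5xFAD with a log2 fold change of -1.55 (SE 0.35). Without *Card9* the *Pecam1* value was -1.06 (SE 0.34), which did not pass. The endothelial and pericyte markers summed to 65.7 to 187 CPM in WT and 56.3 to 90.1 CPM in 5xFAD. *Cspg4*, known from oligodendrocyte precursors, was higher by 5.70 (SE 0.67) in 5xFAD and 5.25 (SE 0.67) without *Card9*.

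Leaving out each library in turn left all 7 genes lower in both contrasts, which are the contrasts that chose them. Between 5xFAD and WT the log2 fold change of *Tmem44* stayed between -1.79 and -1.47 and that of *Cass4* between -1.58 and -1.20, the latter without WT replicate 1, which held the highest *Cass4* value. *Nedd9* without *Card9* stayed between -0.49 and -0.22. In 5xFAD against WT 5 to 7 members passed: without 5xFAD replicate 4, *Kcne3* and *Bank1* did not.

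**Figure D3:**
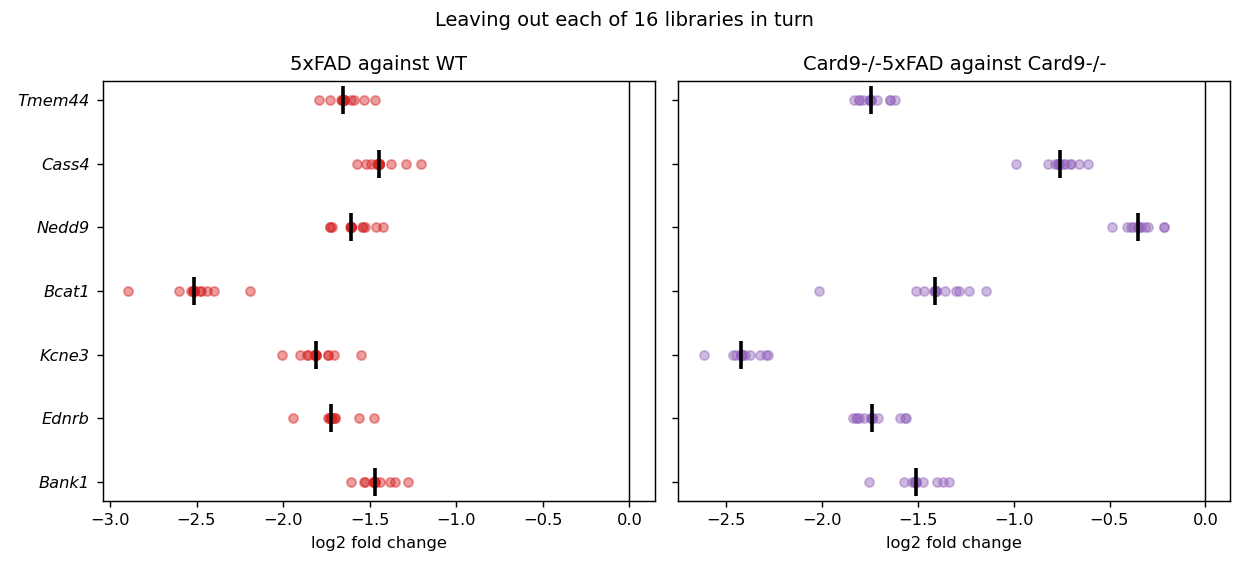
Log2 fold change of each gene with the transgenes when each of the 16 libraries is left out in turn (dots) and with all libraries (black bars), with *Card9* (left) and without it (right, labelled genotypes). Every dot lies below 0, in the contrasts that chose the genes, and the widest spread is that of *Bcat1*, -2.02 to -1.15 without *Card9*.

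The effect of the *Card9* deletion was tested in edgeR, although the libraries are the same ones whose transgene contrasts chose the members, so these tests are not independent of the choice. None of the 7 passed the FDR threshold between the libraries labelled *Card9*-/- and WT, between those labelled *Card9*-/-5xFAD and 5xFAD, or in the fit of both adjusted for the transgenes, where the shares of all genes were 0.0%, 0.0% and 0.0345%. At an unadjusted p below 0.05 the counts of members were 0, 2 and 1, and DESeq2 also called 0 in each. *Nedd9* was higher in the libraries labelled *Card9*-/-5xFAD than in 5xFAD by 0.95 on the log2 scale (SE 0.31, adjusted p = 0.993), and its ranges, 5.74 to 10.2 and 2.88 to 5.18 CPM, did not overlap. *Cass4* was 0.55 higher (SE 0.27, adjusted p = 0.993), again without overlap, at 19.8 to 38.5 against 15.2 to 19.7 CPM. Non-overlap held for 2 of 7 members and for 1.89% of all genes in this contrast. *Kcne3* was lower by value, -1.03 (SE 0.45, adjusted p = 0.993), with overlap from 5xFAD replicate 2 at 0.411 CPM.

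Without transgenes, *Bcat1* was the member with the largest difference, -0.84 (SE 0.43, adjusted p = 0.97) in the libraries labelled *Card9*-/- against WT. Its ranges, 1.08 to 1.80 and 1.94 to 2.74 CPM, did not overlap, which held for 1 of 7 members and for 2.66% of all genes. Adjusted for the transgenes, *Kcne3* stood at -0.66 (SE 0.29, adjusted p = 0.463), *Bcat1* at -0.41 (SE 0.35, adjusted p = 0.669) and *Nedd9* at 0.30 (SE 0.26, adjusted p = 0.671). *Tmem44*, *Ednrb* and *Bank1* stood at 0.063 (SE 0.19), 0.062 (SE 0.23) and 0.026 (SE 0.20), values whose sign changed between alternatives.

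**Figure D4:**
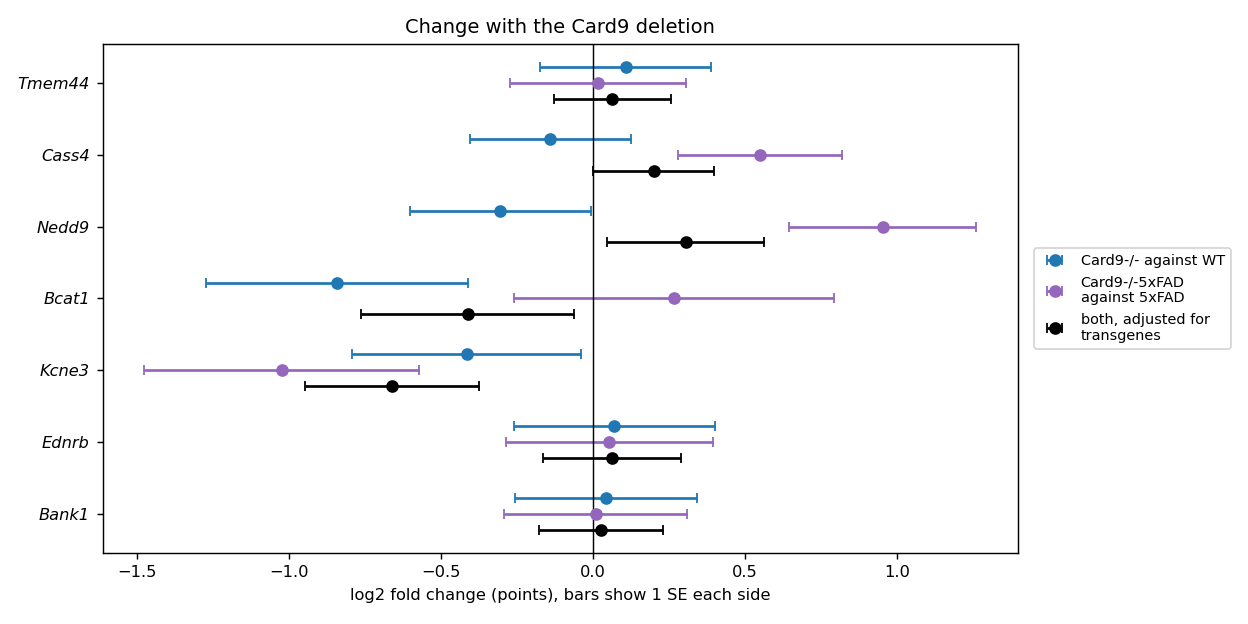
Log2 fold change of each gene with the *Card9* deletion as labelled (x axis), without transgenes (blue), with them (purple) and over both adjusted for the transgenes (black); points are edgeR estimates and bars 1 SE each side. No value passed the FDR threshold, and the points of *Nedd9* spread most, from -0.31 to 0.95.

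The pathway partners of the members were read against lists of genes. Of the Cas family, *Cass4* and *Nedd9* were the members that these cells expressed: *Bcar1* (p130Cas) had at most 6 counts in a library and *Efs* at most 4. Of 22 tested genes of Cas and focal adhesion signaling, 0 passed in 5xFAD (2 at an unadjusted p below 0.05, and 1 by DESeq2), and without *Card9* only *Bcar3*, a partner of Cas proteins, passed, higher by 2.53 (SE 0.43, adjusted p = 0.00451). Under the replicate block 3 and 5 passed, of which 2 and 3 were lower. The median of the list was -0.28 and -0.26, against -0.15 for all genes in each contrast.

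No partner of *Bcat1* in branched-chain amino acid breakdown moved with it at the threshold: of 22 genes 0 passed in either contrast by edgeR or DESeq2, with 1 each at an unadjusted p below 0.05, and 2 each, all lower, under the replicate block. *Bcat2*, the mitochondrial aminotransferase, had mean levels of 28.2 to 36.5 CPM in the 4 genotypes and log2 fold changes of 0.28 (SE 0.51) and -0.01 (SE 0.51). Among 9 tested potassium channel genes 2 rose in 5xFAD, *Kcnj2*, an inward rectifier, by 2.11 (SE 0.32, adjusted p = 0.00174) and *Kcnh2*, a voltage-gated channel, by 3.64 (SE 0.85, adjusted p = 0.0408). Without *Card9* only *Kcnj2* passed, by 1.67 (SE 0.32, adjusted p = 0.0119), and 0 were lower in either contrast. *Kcnq1* and *Kcnc4*, pore subunits that KCNE3 can join, had at most 3 and 1 counts in a library.

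Of 11 tested endothelin genes 0 passed in either contrast, by edgeR or DESeq2, with 0 and 1 at an unadjusted p below 0.05, and 0 and 2, both lower, under the replicate block. The second endothelin receptor *Ednra* had at most 4 counts in a library, and the ligand *Edn2* had 0. *Edn1* had mean levels of 15.5 to 55.7 CPM with SDs of up to 95.7. Of 18 tested genes of BANK1 and B cell receptor signaling, *Cd22*, an inhibitory sialic acid receptor, rose in both, by 1.48 (SE 0.30, adjusted p = 0.0184) and 1.17 (SE 0.30, adjusted p = 0.0811; passed in 16 and 5 of the 16 fits that leave out 1 library), and 0 fell by edgeR (1 and 2 were lower at an unadjusted p below 0.05, 0 and 1 by DESeq2), whereas 2 and 5 were lower under the replicate block. *Pik3ap1* (BCAP), the adaptor most like BANK1, had log2 fold changes of -0.41 (SE 0.42) and -0.33 (SE 0.42), neither past the threshold.

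**Figure D5:**
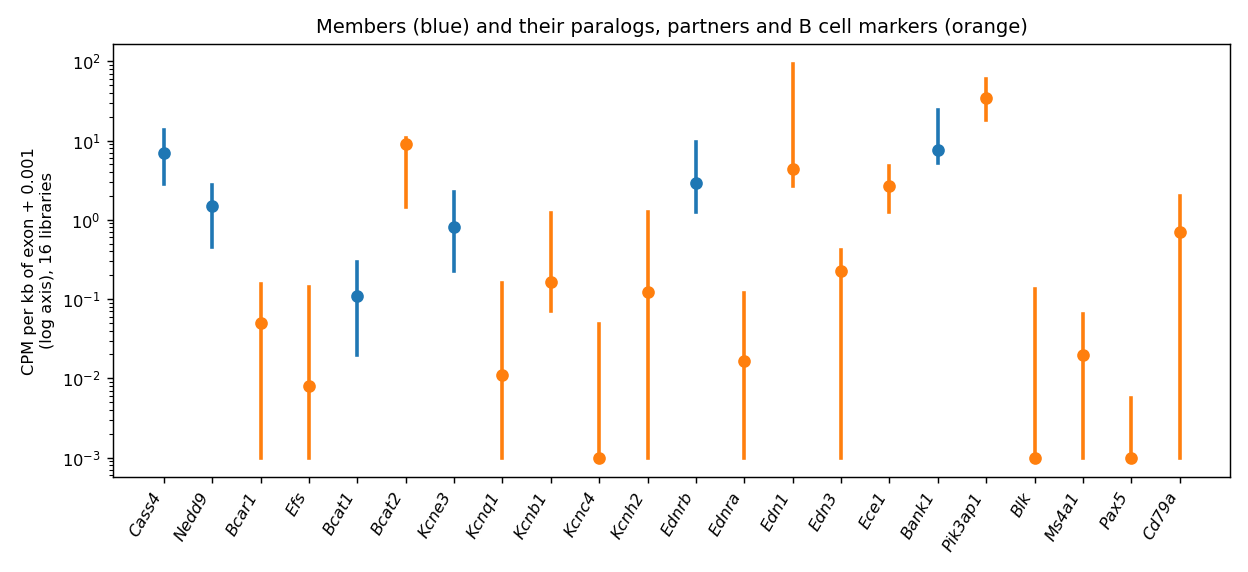
Median (point) and range (line) over 16 libraries of CPM per kb of exon, plus an offset of 0.001, on a log axis, for members (blue) and their paralogs, partners and B cell markers (orange). *Bank1* lies above *Ms4a1*, *Pax5* and *Cd79a*, and *Cass4* and *Nedd9* above *Bcar1* and *Efs*.

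Of 30 genes of resting microglia, the larger programme in which fallen genes might be sought, 1 fell in 5xFAD and 1 rose, the latter being the protease inhibitor *Serpine2* (1.45, SE 0.28, adjusted p = 0.0137). Without *Card9* 0 fell (2 were lower at an unadjusted p below 0.05, 0 by DESeq2) and *Serpine2* rose (1.10, SE 0.28, adjusted p = 0.077), and 7 and 6 were lower under the replicate block. Leaving out 1 library, *Serpine2* passed in 16 of 16 fits in 5xFAD but in 5 of 16 without *Card9*, and the gene that fell in 5xFAD no longer passed in 12 of 16. The medians of this list, -0.33 and -0.19, were smaller in size than those of the members. The members were chosen for falling in these contrasts, so nothing is drawn from that difference. Of 20 genes of plaque-associated microglia 17 rose in each contrast, with medians of 3.05 and 2.87. *Cst7*, a cystatin, rose by 6.65 (SE 0.40, adjusted p = 2.03e-07) and 6.78 (SE 0.41, adjusted p = 9.36e-08).

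The genes most like each member were found by the root-mean-square difference of log2 CPM, each gene centred on its mean, over the 16 libraries and among 14512 genes. The nearest to *Tmem44* were *Ggta1* (0.339) and *Dok3* (0.364), and to *Cass4* *Mtss1* (0.26) and *Fgf11* (0.273). *Nedd9* was nearest to *Tjp1* (0.286) and *Myo1g* (0.318), *Bcat1* to *Cpne2* (0.45) and *Pfkp* (0.471), and *Kcne3* to *Siglecg* (0.482) and *Rhoj* (0.536). *Ednrb* was nearest to *Tmem44* itself (0.376) and to *P2rx1* (0.411), and *Bank1* to *Pid1* (0.308) and *Slc39a12* (0.317). Among pairs of members *Tmem44* and *Ednrb* were closest, followed by *Cass4* and *Nedd9* (0.398). These distances carry the shared transgene difference and the shared depth of each library.

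Per kb of exon, the mean levels in WT ran from *Bank1* (17.5 CPM per kb) through *Cass4* (9.11), *Ednrb* (6.46), *Tmem44* (4.04), *Nedd9* (2.02) and *Kcne3* (1.96) to *Bcat1* (0.256). Neighbours in this order overlapped in range, except that every *Tmem44* value lay above every *Nedd9* value and every *Kcne3* value above every *Bcat1* value. Within genotypes the SD of log2 CPM of the members was 0.322 (*Cass4*) to 0.467 (*Ednrb*), and choosing members by low p in these libraries favours low values.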

How the data were processed

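RNA of CD11b+ brain cells was sequenced in 16 libraries, grouped by the labels into 4 genotypes. The authors aligned the reads to mm10 with HISAT2, filtered them with SAMtools and counted them per gene with HTSeq, and they deposited the raw counts, whole numbers that were not normalized. Versions and the strand setting are not given in the sources used here. The members and lists were chosen with earlier results of these data known. The text names the members, list genes past the threshold, paralogs or partners of members, the 2 genes nearest to each member and the genes ranked next to them. Markers and partners with few counts were named after their values were seen. A few list genes are not reported here by name.

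Counts were fitted with edgeR 4.0.16 in R 4.3.3 (quasi-likelihood test, TMM scaling, minimum count 10, 1 fit of the 4 groups, Benjamini-Hochberg FDR over 14513 genes, threshold 0.1), and the script was tested on simulated data. CPM values are TMM-scaled. Lengths and positions come from GENCODE M21 (GRCm38, the assembly of mm10), and promoters from RefSeq. Nothing says that libraries came from separate animals, so p-values measure the spread between these libraries.

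Alternatives were DESeq2 1.42.0 and its size factors, other filters, only the libraries compared, a surrogate variable (sva 3.50.0), a replicate block, FDR 0.05 and leaving out libraries. Libraries of the same number deviated together in the transgene contrasts (correlations 0.275 to 0.708 with *Card9* and 0.128 to 0.734 without it). The highest, 0.708 and 0.734, were between libraries of low microglia markers. The same number was the closest match in both directions for replicates 1 and 4 with *Card9* and for replicate 4 alone without it. That the numbers pair these samples is therefore an assumption, and the block within each *Card9* genotype was added after seeing the data. In the *Card9* contrasts the correlations ran from -0.637 to 0.488, and the numbers do not pair the samples.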

Additional observations from a re-analysis of the deposited data

Results flagged for a closer look

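In the libraries labelled *Card9*-/-5xFAD, *Ednrb* stood at 5.328 CPM in replicate 1 against 9.61 to 10.1 CPM in the other 3, a gap that exceeds Dixon's 95% limit for 4 samples. It was the only such value among 28 groups of 4 libraries (7 members in 4 genotypes), and chance gives about 1 in 20. Without that library the log2 fold change of *Ednrb* with the transgenes was -1.56 between *Card9*-/-5xFAD and *Card9*-/-, against -1.74 with all libraries.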

How the results depend on the processing

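All transgene log2 fold changes of the 7 members, which were chosen on these contrasts, were negative under every alternative run. Between 5xFAD and WT 304 genes passed, against 171 with at least 10 counts in every library, 565 by DESeq2, 2322 with the replicate block within each *Card9* genotype, 2068 with 1 surrogate variable, 1144 without the 4 libraries of low microglia markers, and 164 (without WT replicate 4) to 386 (without *Card9*-/- replicate 4) leaving out 1 library. Without *Card9* 286 passed, against 185 without a filter, 148 with at least 10 counts, 812 by DESeq2, 96 with only the libraries compared, 2966 with the block, 2567 with the surrogate variable, 2394 without the 4 libraries, 162 at FDR 0.05, and 120 (without *Card9*-/- replicate 2) to 720 (without *Card9*-/- replicate 4) leaving out 1. The difference between backgrounds had 0 genes by edgeR (78 at an unadjusted p below 0.05), 1 by DESeq2 and 0 to 1 leaving out 1. The cause was not tested, apart from fewer genes or samples where the alternative itself removes them.

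Members called between 5xFAD and WT numbered 7, 6 with only the libraries compared (without *Kcne3*), 5 without a filter (without *Kcne3* and *Bank1*) and 5 with at least 10 counts, which removes *Bcat1* and *Kcne3*. Without *Card9* they numbered 4, and 3 to 6 otherwise, 5 without *Card9*-/-5xFAD replicate 4, where *Cass4* passed. In the main fit 0.524% and 0.482% of all genes were called lower with and without *Card9*. Such shares are not given for the alternatives. The same contrasts chose the members, so these counts are a description. The plain replicate block changed no member's call, and in the *Card9* contrasts the members called were 0 under every alternative. The *Card9* effect adjusted for the transgenes had 5 genes, 130 by DESeq2, 1050 with the surrogate variable and 0 to 19 leaving out 1.

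Small *Card9* differences changed sign. For *Card9*-/-5xFAD against 5xFAD, *Tmem44* (0.015) was -0.032 with DESeq2's size factors, -0.055 without a filter, -0.078 with at least 10 counts, -0.044 by DESeq2, -0.038 with only the libraries compared and -0.26 without the 4 libraries, *Bank1* (0.0081) was -0.047, -0.054, -0.090, -0.049, -0.031 and -0.089 in the same order, and *Ednrb* (0.053) was -0.019 without a filter, -0.014 with at least 10 counts and -0.16 without the 4. For *Card9*-/- against WT, *Bank1* (0.043) was -0.025 with size factors, -0.080 with at least 10 counts and -0.020 by DESeq2, *Ednrb* (0.070) was -0.016 with at least 10 counts and -0.30 without the 4, and *Cass4* (-0.14) was 0.085 without the 4. Adjusted for the transgenes, with at least 10 counts *Tmem44* was -0.033, *Ednrb* -0.015 and *Bank1* -0.085, without the 4 *Tmem44* was -0.11 and *Ednrb* -0.23, and *Bank1* was -0.036 with size factors and -0.034 by DESeq2. Leaving out 1 library gave, for *Card9*-/- against WT, *Tmem44* -0.037 to 0.23, *Cass4* -0.27 to 0.10, *Ednrb* -0.15 to 0.31 and *Bank1* -0.14 to 0.29; for *Card9*-/-5xFAD against 5xFAD, *Tmem44* -0.18 to 0.11, *Bcat1* -0.34 to 0.64, *Ednrb* -0.11 to 0.23 and *Bank1* -0.17 to 0.063; and adjusted, *Tmem44* -0.023 to 0.11, *Ednrb* -0.049 to 0.17 and *Bank1* -0.12 to 0.14. The depth limits *Bcat1* and *Kcne3*, which had 1 to 9 counts in each transgenic library.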
